A study of Mus musculus with 4 samples.

Results

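The genes that make and sense leukotrienes were examined in EGFP-positive and Tomato-positive cells sorted from the trachea and the stomach of Tas2r143-reporter mice. The 10 members were taken by gene name from the 48709 genes of the deposited expression table, and all 10 were found there, each on a single line. They were Pla2g4a, Alox5, Alox5ap, Ltc4s, Lta4h, Alox12, Alox15, Cysltr1, Cysltr2 and Ltb4r1. The question was which of the sorted cells carry the transcripts needed to produce cysteinyl leukotrienes and which carry the receptors for them.

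All mice were C57BL/6 and carried both Tas2r143-CreERT2 and the Cre reporter allele Rosa26flox-mT-stop-flox-mG. CreERT2 was driven by the Tas2r143 promoter on a bacterial artificial chromosome, and tamoxifen was given for 5 days, with cells collected 5 days after the last dose. The mice were described as adult, and no age was given in the labels. Recombined cells and their progeny carry EGFP and all other cells keep Tomato, so both sorts came from the same treated animals and no untreated group was used. Each sort (EGFP or Tomato) in each organ formed a group, 4 in all, with 1 library per group from cells of 3 mice of the same transgenic line. The design therefore has no replicates. The sorts differed in their gates, since only the Tomato-positive cells were also selected for EpCAM, an epithelial surface protein. For each library the sample title names the opposite tissue to the other tissue fields. Libraries were grouped by title, which also matches the names of the data columns, and every statement on trachea or stomach depends on this choice.

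The library totals lay between 9979296 and 15433150 normalized counts, which corresponded to an estimated 6200000 to 18900000 reads. The shallowest was the tracheal EGFP library. Club cell markers summed to 61926 and 1378126 normalized counts (EGFP, then Tomato) in the pair titled trachea, against 4 and 72 in those titled stomach. Pit cell markers of the stomach summed to 15 and 12 against 105904 and 882574 in the same order. Lipf, one of the chief cell markers, went against the titles with 924 and 53408 in the tracheal libraries and 0 in both gastric ones. Tuft cell markers, a list that includes Trpm5 and Pou2f3, summed to 219405 in tracheal EGFP cells and 210512 in gastric EGFP cells, against 3966 and 11200 in the Tomato cells. B and plasma cell markers were also higher in the EGFP libraries, at 19612 against 6606 in the trachea and 685888 against 37955 in the stomach.

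Leukotrienes are lipid mediators made from arachidonic acid. Cytosolic phospholipase A2 (Pla2g4a) frees arachidonic acid from membranes, and 5-lipoxygenase (Alox5), helped by its activating protein FLAP (Alox5ap), converts it to leukotriene A4. From there the path forks. Leukotriene C4 synthase (Ltc4s) adds glutathione and gives the cysteinyl leukotrienes, which act on Cysltr1 and Cysltr2, whereas leukotriene A4 hydrolase (Lta4h) gives leukotriene B4, which acts on Ltb4r1. Leukotriene production is best known from mast cells, eosinophils, neutrophils and macrophages, and tuft cells are chemosensory epithelial cells that are also a known source of cysteinyl leukotrienes.

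The promoter stretches of the 3 synthesis genes with an entry in the reference table are shown here because these genes were called higher together in tracheal EGFP cells. Each run is 150 bases of GRCm38.p6 from RefSeq, read 5′ to 3′ on the minus strand and ending next to the annotated start of the gene. Capitals mark a GC box (GGGCGG on either strand).
Pla2g4a, chr1:149961291-149961440: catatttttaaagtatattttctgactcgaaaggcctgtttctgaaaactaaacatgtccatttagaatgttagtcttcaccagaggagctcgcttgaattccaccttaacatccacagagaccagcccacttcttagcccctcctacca
Alox5, chr6:116461179-116461328: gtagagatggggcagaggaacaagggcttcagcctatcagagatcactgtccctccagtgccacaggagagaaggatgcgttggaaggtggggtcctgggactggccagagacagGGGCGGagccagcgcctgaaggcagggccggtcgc
Ltc4s, chr11:50238617-50238766: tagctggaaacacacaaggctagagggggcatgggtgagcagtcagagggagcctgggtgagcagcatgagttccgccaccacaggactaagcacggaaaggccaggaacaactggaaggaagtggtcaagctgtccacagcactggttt
The run of Ltc4s lies 84 bases further upstream than its RefSeq start, because GENCODE annotates an exon on the bases between. The GC content was 41.3% for Pla2g4a, 63.3% for Alox5 and 56.7% for Ltc4s. Within the full 250 bases before the RefSeq start, GGGCGG was found on either strand for Alox5, Alox12 and Ltb4r1 among the 7 members with an entry, and in 32.7% of 32851 promoters overall. The octamer ATGCAAAT, the letters recognised by POU-domain factors such as Pou2f3, was found in none of the 7 and in 1.6% of all promoters. It shares no position with GGGCGG. Alox5ap, Alox15 and Cysltr1 had no entry.

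In the trachea, 4 of the 10 members were at least 4-fold higher in EGFP cells (Pla2g4a, Alox5, Alox5ap and Ltc4s), where 25.2% of all 10523 genes tested were called higher. Lta4h, Alox12 and Alox15 were at least 4-fold lower, where 32.4% of all genes were called lower, and the 3 receptors did not reach the minimum of 50 normalized counts in either library. In the stomach, Alox5, Alox5ap and Ltc4s were higher in EGFP cells, where 14.8% of 11094 genes were called higher. No member was called lower there, against 22.4% of all genes, Pla2g4a and Lta4h lay within 4-fold, and 5 members were under the minimum. Because the members fall on opposite branches, their shares are given only beside these backgrounds. The median log2(EGFP/Tomato) over all 10 members was 0.79 in the trachea and 0.88 in the stomach, against -0.32 and -0.15 for all genes tested, and each members' median lay midway between 2 genes of which at least 1 had almost no reads. All genes tested had reached the minimum, whereas the 10 members include some that did not. Over only the members at the minimum, the median was 2.76 in the trachea (7 members) and 4.19 in the stomach (5 members). In bulk sorts like these, fewer cells of a type and less RNA per cell cannot be told apart.

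**Figure D1:**
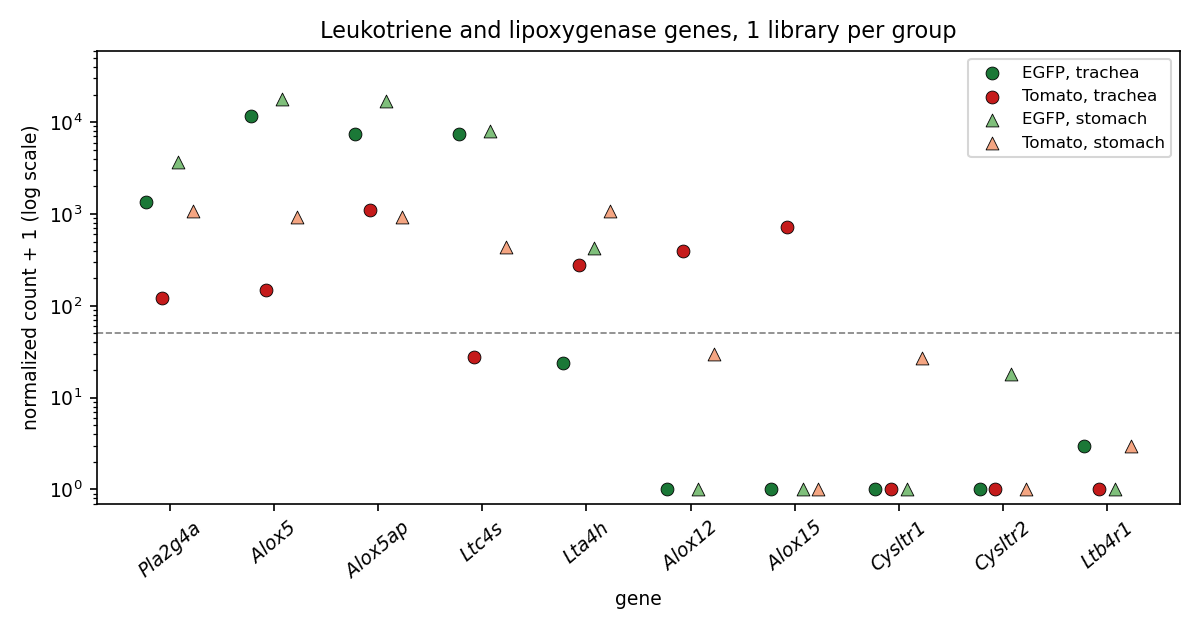
Normalized counts plus 1 (log axis) of the 10 members in each of the 4 libraries, 1 point per library, with the 50-count minimum as a dashed line. Alox5, Alox5ap and Ltc4s lie between 7363 and 18046 normalized counts in both EGFP libraries, and the 3 receptors lie under the minimum in all 4.

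Pla2g4a was measured at 1348 normalized counts in tracheal EGFP cells, 122 in tracheal Tomato cells, 3674 in gastric EGFP cells and 1088 in gastric Tomato cells. The EGFP library was the higher one in both tissues, but gastric Tomato cells came close to tracheal EGFP cells. EGFP cells were 11.0-fold higher in the trachea (95% counting interval 9.27 to 13.2) and 3.38-fold higher in the stomach (3.18 to 3.59), so the gastric difference stayed under 4-fold. Scaling the libraries to the same total without immunoglobulin genes, a choice made after seeing the data, took it past 4-fold (log2 2.12). The gene occupies chr1:149829618-149961290 on the minus strand of GRCm38 (ENSMUSG00000056220) and shares no exon base with another gene. All intervals on ratios cover counting error only, not the spread between mice or that added by the cDNA pre-amplification of the libraries.

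Alox5, which makes leukotriene A4, stood at 11771 normalized counts in tracheal EGFP cells and 18046 in gastric EGFP cells. In Tomato cells it stood at 147 in the trachea and 937 in the stomach. The groups were far apart, with the lowest EGFP value above the highest Tomato value. EGFP cells were 79.9-fold higher in the trachea (69.0 to 93.1) and 19.3-fold higher in the stomach (18.1 to 20.5). Its 14 exons lie on the minus strand of chr6:116410077-116461178 (ENSMUSG00000025701), with none shared. The GC box shown above in its promoter stretch is the single one in the 250 bases before its start.

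Alox5ap, whose product FLAP presents arachidonic acid to 5-lipoxygenase, was at 7462 normalized counts in tracheal EGFP cells, 1098 in tracheal Tomato cells, 16819 in gastric EGFP cells and 919 in gastric Tomato cells. Unlike Alox5, it was at nearly the same level in both Tomato libraries. EGFP cells were 6.80-fold higher in the trachea (6.40 to 7.23) and 18.3-fold higher in the stomach (17.2 to 19.4). The gene lies on the plus strand of chr5:149264767-149288153 (ENSMUSG00000060063), and 13.3% of its exon bases are shared with Gm19719 on the opposite strand.

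Ltc4s, the step that commits leukotriene A4 to the cysteinyl branch, was at 7363 normalized counts in tracheal EGFP cells and 27 in tracheal Tomato cells. In the stomach it was at 8054 in EGFP cells and 440 in Tomato cells. Both EGFP libraries were thus nearly equal, and the Tomato libraries set the size of each ratio. EGFP cells were 276-fold higher in the trachea (196 to 401) and 18.3-fold higher in the stomach (16.8 to 20.0). The gene lies on the minus strand of chr11:50236461-50238616 (ENSMUSG00000020377), and 26.4% of its exon bases are shared with Gm26542 on the opposite strand. Reads on shared bases were left out by the authors' counting where their annotation held both genes, so the levels of Ltc4s and Alox5ap may be too low in all libraries.

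Compared per length, as normalized counts per kb of the longest coding transcript, the 3 genes were among the most abundant protein-coding genes of the EGFP cells. In tracheal EGFP cells, Ltc4s was at 10300 per kb (rank 35 of 7287 genes at the minimum), Alox5ap at 5960 (rank 93) and Alox5 at 4170 (rank 167). In gastric EGFP cells, Alox5ap was at 13400 per kb (rank 41 of 8177), Ltc4s at 11200 (rank 47) and Alox5 at 6400 (rank 110). Ltc4s and Alox5ap thus exchanged places between the tissues. Pla2g4a was lower on this scale, at 472 per kb in tracheal and 1290 per kb in gastric EGFP cells. With 1 library per group, whether these orders exceed the spread between mice cannot be tested.

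**Figure D2:**
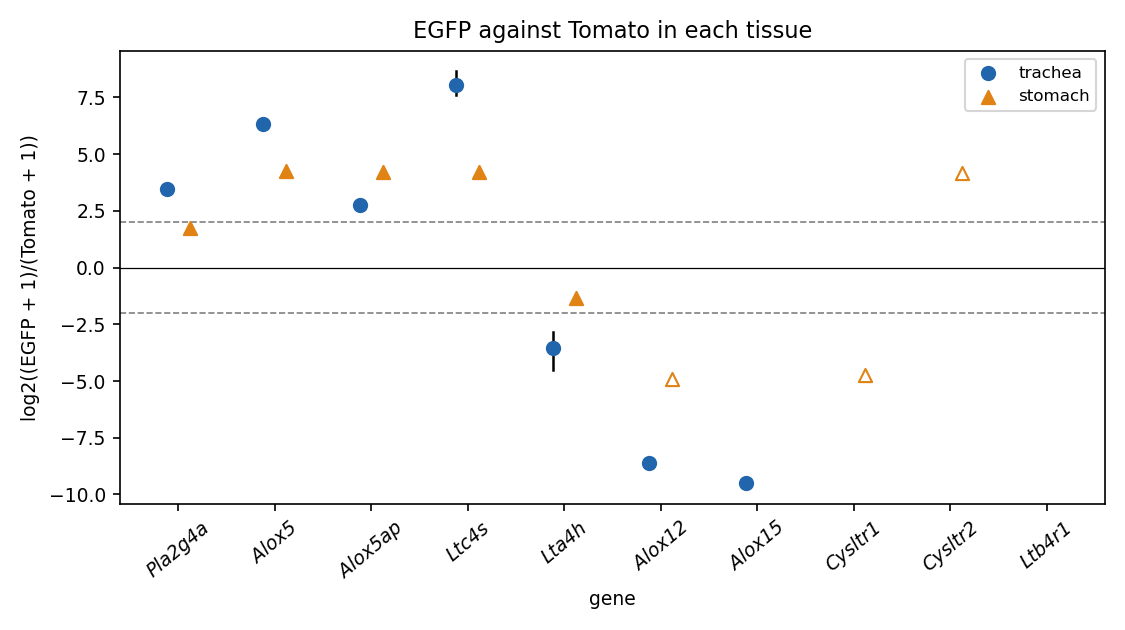
log2((EGFP + 1)/(Tomato + 1)) of the members in trachea and stomach, with bars for 95% counting intervals and open symbols for genes under the 50-count minimum. Members at no more than 3 estimated reads in both libraries are not drawn. Pla2g4a, Alox5, Alox5ap and Ltc4s lie above 0 in both tissues and Lta4h lies below 0 in both.

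Lta4h, which turns leukotriene A4 into leukotriene B4, showed the opposite order. It was at 23 normalized counts in tracheal EGFP cells, 278 in tracheal Tomato cells, 425 in gastric EGFP cells and 1075 in gastric Tomato cells. The Tomato library was the higher one in both tissues, although gastric EGFP cells lay above tracheal Tomato cells. Tomato cells were 12.3-fold higher in the trachea (7.26 to 22.8) and 2.53-fold higher in the stomach (2.29 to 2.80). Per kb, Lta4h in gastric EGFP cells was at 209, rank 3030 of 8177, while Ltc4s was at rank 47 in the same library. Its position is chr10:93453411-93484875 on the plus strand (ENSMUSG00000015889), and it shares no exon base with another gene.

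Alox12 and Alox15, lipoxygenases that oxidise arachidonic acid at other carbons, were listed at 0 in both EGFP libraries. Alox12 was at 393 normalized counts in tracheal Tomato cells and 29 in gastric Tomato cells. Alox15 was at 723 in tracheal Tomato cells and 0 in gastric Tomato cells. Both genes were therefore detected in Tomato cells only, with Alox15 in the trachea only. Against a floor of 3 reads per library, tracheal EGFP cells were at least 81.4-fold lower for Alox12 and at least 150-fold lower for Alox15. These bounds do not cover molecules lost in the cDNA pre-amplification. Both lie on the minus strand of chromosome 11, Alox12 at chr11:70241457-70255353 (ENSMUSG00000000320) and Alox15 at chr11:70344152-70352031 (ENSMUSG00000018924). The tracheal Tomato library also held basal cell markers at a sum of 35182, macrophage markers at 41768 and dendritic cell markers at 20874 normalized counts. The corresponding sums in tracheal EGFP cells were 135, 850 and 377. In the Tomato library, Lyz2 (35491) and Cd14 (4253) supplied most of the macrophage sum, with Adgre1, Fcgr1 and Itgam at 0. H2-Aa (8389) and H2-Ab1 (10812) supplied most of the dendritic sum, with Itgax at 1623 and Flt3 and Xcr1 at 0. The part of basal cells, macrophages and dendritic cells in the Alox12 and Alox15 levels was not tested.

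The receptors were at or near 0 in every library. Cysltr1 was at 26 normalized counts in gastric Tomato cells and at 0 in the other 3 libraries. Cysltr2 was at 17 in gastric EGFP cells and at 0 in the other 3. Ltb4r1, the high-affinity leukotriene B4 receptor, was at 2 in tracheal EGFP cells, 2 in gastric Tomato cells and 0 in the others. All 12 receptor values were thus under the minimum of 50. A library at 0 allows up to 3 reads, which corresponds to 4.83 normalized counts in tracheal EGFP cells and to 2.36 to 2.45 in the others, so a receptor listed at 0 cannot be told from one at up to these levels. The values of 2 for Ltb4r1 stand for 1 and 2 estimated reads and lie within the same limit. The genes lie at chrX:106574346-106603679 (Cysltr1, minus strand, ENSMUSG00000052821), chr14:73025603-73049114 (Cysltr2, minus strand, ENSMUSG00000033470) and chr14:55765962-55768494 (Ltb4r1, plus strand, ENSMUSG00000046908). Of the 7 further receptor genes listed for the pathway, which include the oxoglutarate receptor Oxgr1 and the lipoxin receptor Fpr2, the 6 in the table also stayed under the minimum in every library.

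The difference between tissues was described by subtracting the gastric from the tracheal log2(EGFP/Tomato). It was 3.85 for Ltc4s (95% counting interval 3.34 to 4.36), 2.05 for Alox5 (1.82 to 2.28) and 1.70 for Pla2g4a (1.44 to 1.97). It was -1.43 for Alox5ap (-1.55 to -1.31) and -2.20 for Lta4h (-2.99 to -1.42). Alox5ap thus went the other way from the other 3 genes needed for cysteinyl leukotrienes. Of the 5 members at the minimum in both tissues, Ltc4s, Alox5 and Lta4h differed by 4-fold or more, but with a pseudocount of 10 only Ltc4s did.

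Between the EGFP libraries, Alox5 was 1.53-fold (1.49 to 1.57), Alox5ap 2.25-fold (2.18 to 2.33) and Ltc4s 1.09-fold (1.06 to 1.13) higher in the stomach. The direction for Ltc4s (log2 -0.13, trachea over stomach) depended on the scaling, since it was 0.32 with equal library totals, 0.13 without immunoglobulin genes and 0.05 without the 10 highest genes of each library. All 3 stayed within 4-fold, as did Pla2g4a, which was 2.73-fold higher in the stomach (2.53 to 2.94). Only Lta4h was called, at 18.9-fold lower in the trachea (11.1 to 34.7), where 28.3% of 10337 genes were called lower and 19.8% higher in the trachea. Between the Tomato libraries, Pla2g4a was 8.91-fold (7.52 to 10.6), Alox5 6.36-fold (5.44 to 7.48) and Ltc4s 16.5-fold (11.6 to 24.2) lower in the trachea. Genes called lower in the trachea made up 27.9% of 11338 in that comparison. Alox5ap was 1.19-fold higher in tracheal than in gastric Tomato cells (1.10 to 1.29, log2 0.26), a direction that turned without the 10 highest genes of each library (-0.17). Alox12 was 13.7-fold higher in tracheal Tomato cells (9.75 to 20.0) and Alox15 at least 295-fold higher, where 20.3% of genes were called higher. These comparisons use the same 4 libraries as those of EGFP with Tomato and are not independent of them.

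The levels in Tomato cells were then set beside those of tuft cell markers, as a percent of the EGFP level of the same tissue. In the trachea, the 11 tuft markers at the minimum in EGFP cells ranged from 0.0% to 9.89% with a median of 1.36%. Ltc4s was at 0.367%, Alox5 at 1.25% and Pla2g4a at 9.05%, all inside that range, and Alox5ap at 14.7% lay above it. The only tuft marker below Ltc4s was Il25 at 0.0%, and the next one up was Avil at 0.549%. In the stomach, the 13 tuft markers ranged from 0.0% to 12.8% with a median of 4.23%. Alox5 was at 5.19%, Alox5ap at 5.46% and Ltc4s at 5.46%, and Pla2g4a at 29.6% lay above the range. The summed macrophage markers were 41768 normalized counts in tracheal and 16836 in gastric Tomato cells, and mast cell markers 770 and 12392. Lyz2 supplied 35491 of the tracheal macrophage sum and 5413 of the gastric one. Of that list, Lyz2, Cd14 and Mrc1 were higher in tracheal Tomato cells, and all the others were higher in gastric ones. In the paper's imaging, most cells of the stomach corpus with the tuft cell marker DCLK1 lacked EGFP. In the trachea most of them carried it. The part of leukocytes and of EGFP-negative tuft cells in the Tomato levels of the members was not tested.

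**Figure D3:**
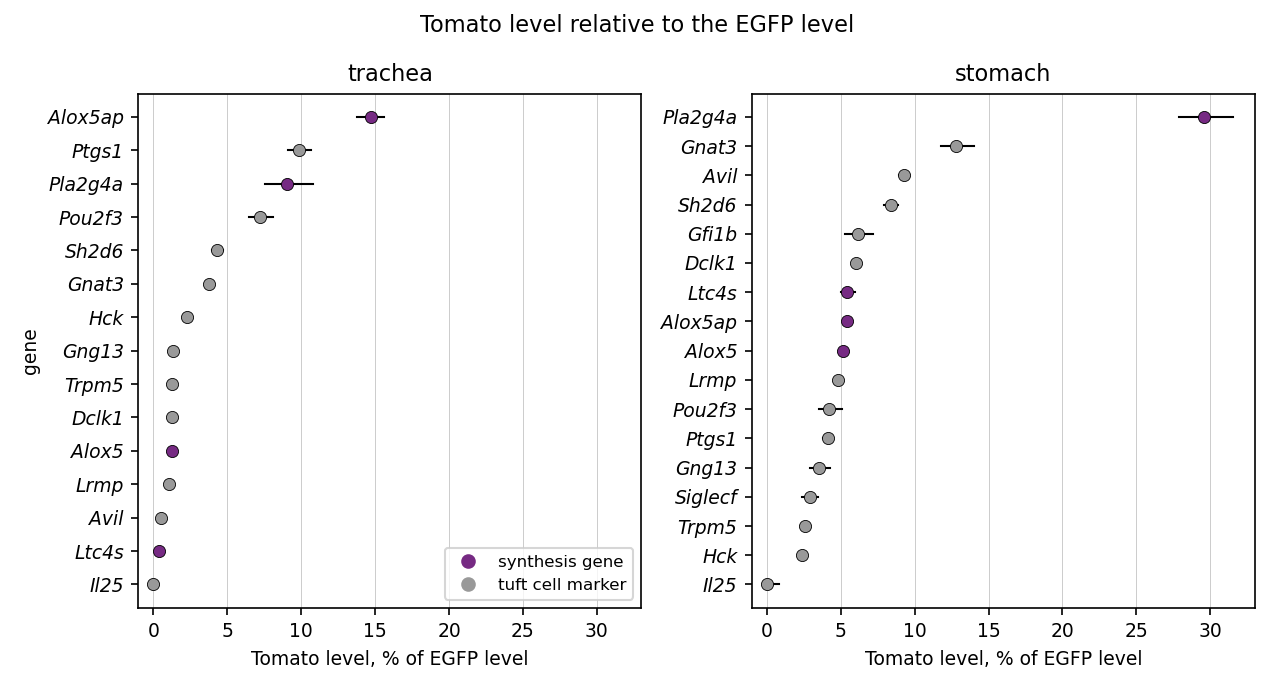
Level in Tomato cells as a percent of the level in EGFP cells, for the 4 synthesis genes (purple) and the tuft cell markers (grey) in each tissue, 1 point per gene. Alox5ap in the trachea (14.7%) and Pla2g4a in the stomach (29.6%) lie above every tuft marker of their tissue.

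Markers of the leukocytes best known for leukotriene synthesis were mostly absent from the EGFP libraries. All 8 neutrophil markers were at 0 in both, but in the Tomato cells they also summed to only 15 in the trachea and 151 in the stomach. Of the 11 mast cell markers, Cpa3, Fcer1a and Ms4a2 were at 0 in both EGFP libraries, as they were in tracheal Tomato cells. Kit supplied 784 of 784 normalized counts in tracheal EGFP cells and 322 of 356 in gastric EGFP cells. Among the 5 eosinophil markers only Prg2 was above 0, at 121 and 405, against 0 and 78 in the Tomato cells. Macrophage markers summed to 850 in the trachea and 15 in the stomach, with Csf1r, Adgre1 and the C1q genes at 0. The tracheal sum came from Lyz2 (470), Cd14 (325) and Cd68 (55). The B and plasma cell list was an exception. Igkc was at 12790 in tracheal and 530119 in gastric EGFP cells, Jchain at 5156 and 149752, and Cd79b at 1386 and 2855, whereas Ms4a1 was at 0 in both. The 4 general leukocyte markers summed to 338 and 1818 in the EGFP cells (trachea, then stomach), against 1370 and 2685 in the Tomato cells. Of these, Ptprc was at 338 and 1051 against 1 and 768, and Coro1a at 0 and 440 against 557 and 104. Cd52 and Laptm5 were lower in EGFP cells of both tissues. The part of B cells, plasma cells and other leukocytes in the EGFP levels of Alox5 and Alox5ap was not tested.

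Both tissues together allowed a test that takes them as repeats of the EGFP against Tomato contrast, with tissue as a block and 1 residual degree of freedom (limma, two-sided, Benjamini-Hochberg adjusted over 13023 genes). It called 3 members, all higher in EGFP cells, where 0.929% of genes were called higher and 1.41% lower. The log2 difference was 5.29 for Alox5 (SE 0.814, adjusted p = 4.58e-08), 6.11 for Ltc4s (SE 1.05, adjusted p = 2.02e-06) and 3.48 for Alox5ap (SE 0.740, adjusted p = 0.000385), each higher in 2 of 2 tissues. Pla2g4a was at 2.60 (SE 1.05) with a limma adjusted p of 0.241 and Lta4h at -2.44 (SE 1.57) with 0.647, so neither passed. With so few libraries the calls rest on a spread shared across genes. Without the tissue block, or without the trend in the spread, limma called no member and no gene, with 776 and 976 genes at an unadjusted p under 0.05, and no member was called higher when any single library was left out. With a pseudocount of 0.1, Alox5 (adjusted p = 0.0104 by limma) and Ltc4s (0.0302) passed and Alox5ap (0.0583) did not.

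The genes with the most similar profile over the 4 libraries were sought for each member among 13016 genes, by the distance between log2 profiles centred on their mean. Alox5 was nearest to Ptpn6 (distance 0.39), the tuft cell gene Rgs13 (0.44) and Pithd1 (0.55). Alox5ap was nearest to Fam160a2 (0.39), Fam174a (0.52) and Ptgs1 (0.53), the last of which is cyclooxygenase-1, another enzyme of arachidonic acid. Ltc4s was nearest to Mcf2l (0.33), C2cd2l (0.48) and Kctd12 (0.58). Nearest to Pla2g4a were Acat2 (0.20), Ano6 (0.36) and Gstm7 (0.38), and nearest to Lta4h were Tbc1d13 (0.20), Thap1 (0.47) and Slc35f6 (0.47). Alox12 was nearest to Il21r (0.37), Colec12 (0.38) and Enpp2 (0.41). Alox15 was nearest to Dnah12 (0.02), an axonemal dynein of motile cilia, which likewise was above 0 in tracheal Tomato cells only (714 normalized counts), followed by Fmo6 (0.02) and Ribc1 (0.05). Genes above 0 in tracheal Tomato cells only differ by their level alone on this measure. Within a distance of 0.5 of Alox15 lay 36 genes, against 1 to 5 for the other members. Each likeness rests on 4 values and is a description.

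Among the other genes of the pathway, more were called lower than higher in EGFP cells of both tissues. Of 48 listed genes, 47 were in the table, 13 of these were at 0 in all 4 libraries, and 19 reached the minimum in the trachea. There, 4 were called higher in EGFP cells, 10 lower and 5 neither, where 25.2% of all genes tested were called higher and 32.4% lower, and the median log2 was -2.10 against -0.32 for all. In the stomach, 23 reached the minimum, of which 2 were higher, 7 lower and 14 neither, where 14.8% of all genes were called higher and 22.4% lower, and the median was -0.67 against -0.15.

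Acsl4, the ligase that couples arachidonic acid to coenzyme A, was the only one called higher in both tissues. It was at 19335 normalized counts in tracheal EGFP and 2653 in tracheal Tomato cells, and at 24336 and 3713 in the stomach. Its log2 difference over both tissues was 2.79 (limma adjusted p = 0.000341). The other genes called higher in the trachea were the phospholipase Pla2g4f (1140 in EGFP and 0 in Tomato cells), the leukotriene C4 exporter Abcc1 (812 and 138) and Ggt1 (109 and 0), whose enzyme cleaves leukotriene C4 to D4. In the stomach, Pla2g16 was called higher (4447 and 927), and in the trachea it was 3.50-fold higher (2834 and 810) and not called. In the stomach, Ggt1 (156 and 86) and Abcc1 (112 and 252) were not called.

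Ptgr1, which breaks down leukotriene B4, and the exporter Abcc4 were lower in EGFP cells of both tissues. Ptgr1 was at 0 in tracheal EGFP and 678 in tracheal Tomato cells, and at 1081 and 11704 in the stomach, with a log2 difference of -6.42 over both tissues (limma adjusted p = 0.00106, and 0.17 with a pseudocount of 0.1). Abcc4 was at 29 and 532 in the trachea and at 7 and 129 in the stomach. Cotl1, a binding partner of 5-lipoxygenase, was at 169 in tracheal EGFP and 2499 in tracheal Tomato cells but at 4116 and 4878 in the stomach. Mgst2, a relative of Ltc4s with leukotriene C4 synthase activity, was 4.70-fold lower in tracheal EGFP cells (4.42 to 4.99) and 2.50-fold higher in gastric EGFP cells (2.36 to 2.64). Pla2g1b, a secreted digestive phospholipase, was at 37761 in gastric EGFP and 877181 in gastric Tomato cells. In the same gastric libraries the chief cell markers summed to 46948 and 1083549.

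The remaining calls were all lower in EGFP cells. In the trachea, Ptges, the prostaglandin E synthase of the same protein family as Ltc4s, was at 0 in EGFP and 1367 in Tomato cells, and the lysophospholipid acyltransferase Lpcat2 was at 213 and 1447. The phospholipases Pla2g4e (0 and 293) and Pla2g6 (60 and 260), the lipoxygenase Alox12e (0 and 79) and the acyltransferase Mboat7 (2 and 75) were lower as well. In the stomach, Dpep1, whose enzyme cleaves leukotriene D4 to E4, was at 0 and 176, and the secreted phospholipases Pla2g12b (46 and 586), Pla2g2d (0 and 122) and Pla2g2f (0 and 65) were lower too.

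**Figure D4:**
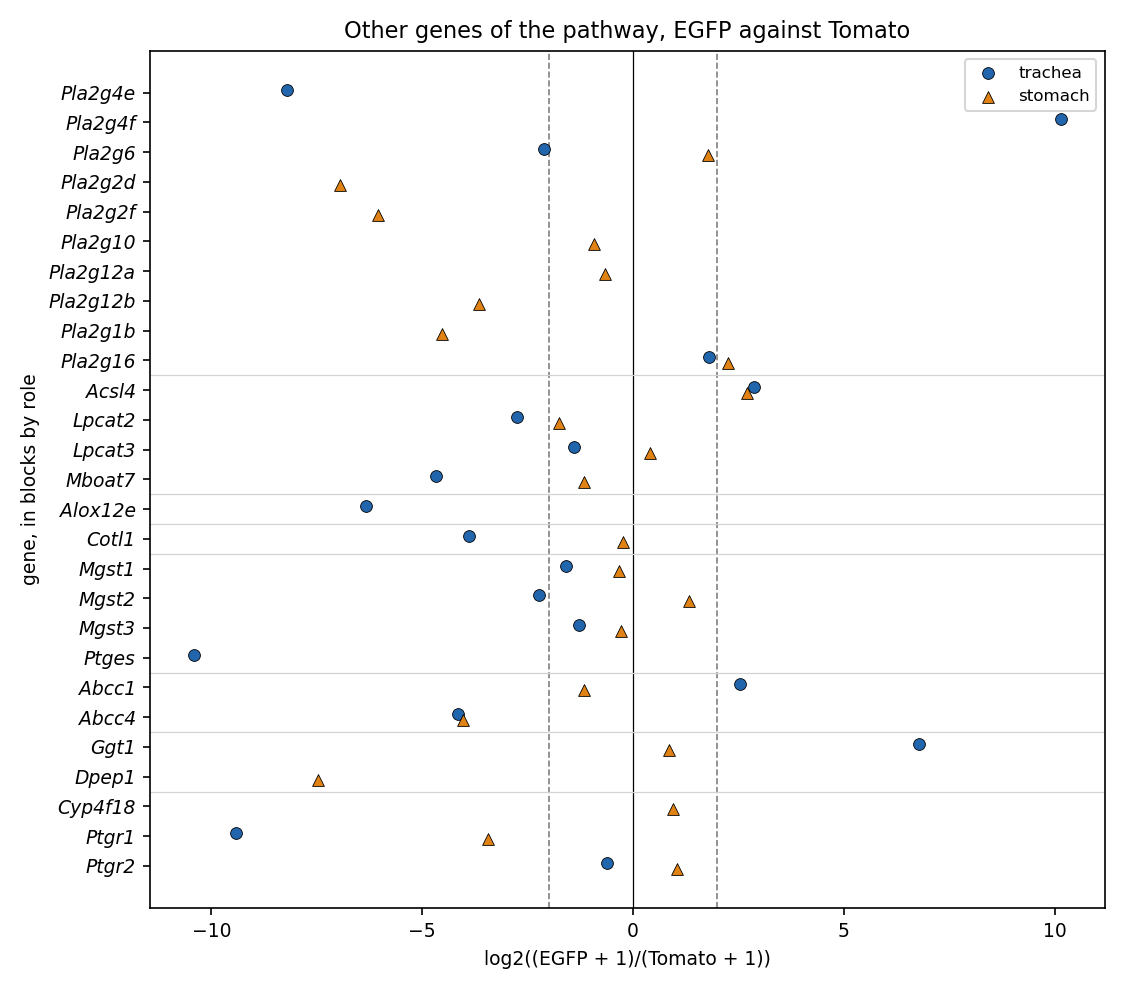
log2((EGFP + 1)/(Tomato + 1)) of the 27 other pathway genes at the minimum in trachea or stomach, grouped by role, 1 point per gene and tissue (19 in the trachea and 23 in the stomach). Acsl4 lies above the 4-fold line in both tissues and Ptgr1 and Abcc4 lie below it in both.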

How the data were processed

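RNA was measured by SMART-Seq v4 and sequencing on a NextSeq500 in 4 libraries, 1 per group. Reads were trimmed (Reaper), aligned to GRCm38 (STAR 2.4.0a) and counted on exons (featureCounts 1.4.5-p1) by the authors, and those that hit several genes or places were dropped. The deposited signal is a count per gene divided by the authors' factor for each library and rounded. The origin of these factors was not given in the sources used here. Such a factor moves the ratios of all genes of a library together.

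The worth of 1 read was estimated from the spacing of low values, at 0.786 to 1.61 normalized counts. Ratios are log2((a + 1)/(b + 1)), called from 4-fold on where the higher library reached 50 normalized counts. Intervals are exact binomial 95% intervals on estimated reads. Values at 0 were replaced by a floor of 3 reads for lower bounds of folds, and intervals and floors cover counting error only. They treat reads as independent and leave out molecules lost or copied unevenly in the authors' cDNA pre-amplification. With 1 library per group no test within a tissue was possible. limma 3.58.1 in R 4.3.3 was run on log2(normalized count + 1) with trend. In the main fit the prior degrees of freedom were infinite, which gives a gene's own spread between the tissues no weight. Its p-values therefore rest on a spread shared by genes of similar level. Other computations used Python 3.11.15, SciPy 1.17.1, pandas 2.3.3 and numpy 2.4.6. The worth of 1 read, the 4-fold rule with its interval and the limma fit were tested on simulated data, and the other steps were not.

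Positions and lengths came from GENCODE M21 (GRCm38), with a length for 98.1% of coding genes, and promoters from RefSeq (GRCm38.p6), with 7 of 10 members matched. Named genes were all members, the 3 nearest profiles of each member that reached the minimum, and the listed pathway genes called in a comparison of EGFP with Tomato. Oxgr1, Fpr2, Lpcat3 and Ptgr2 were named outside this rule, after their values were seen. Gpr31c was not in the table. Several lines shared a symbol for 116 symbols, none of them a member. The members, lists and tests were chosen with earlier results of these data known. Alternatives were other pseudocounts, minimums, fold limits, scalings, limma settings, libraries left out and merged exons for length.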

Additional observations from a re-analysis of the deposited data

Results flagged for a closer look

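For 5 other pathway genes at the minimum in both tissues, EGFP cells lay above Tomato cells in 1 tissue and below them in the other. With 1 library per group, none of these differences was tested. For Pla2g6, a calcium-independent phospholipase, log2(EGFP/Tomato) was -2.10 in the trachea (60 and 260 normalized counts) and 1.78 in the stomach (602 and 174), a difference of -3.88. For Mgst2 it was -2.23 (1897 and 8911) and 1.32 (3332 and 1335), a difference of -3.55. For the exporter Abcc1 it was 2.55 (812 and 138) and -1.16 (112 and 252), a difference of 3.71. The acyltransferase Lpcat3 was at -1.40 (449 and 1184) and 0.40 (914 and 694), a difference of -1.79, and Ptgr2 at -0.61 (192 and 294) and 1.05 (1231 and 596), a difference of -1.66, and neither gene was called in either tissue.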

How the results depend on the processing

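Of 608 single-gene values under other settings, 4 turned sign, none of them called: Ltc4s between EGFP cells (3 scalings) and Alox5ap between Tomato cells (without the 10 highest genes of each library). Many of the values could not turn. Another minimum, another fold limit or the summing of lines with the same symbol leaves every member's ratio as it was. Median-of-ratios scaling shifted the log2 ratios by only -0.01 to 0.00, so it could hardly turn one either. In the trachea, members lower in EGFP cells went from 3 to 1 with a minimum of 500, where Lta4h and Alox12 dropped out. In the stomach they went from 0 to 2 with a minimum of 10 or none (Alox12 and Cysltr1) and to 1 from 2-fold on (Lta4h). Members higher there went from 3 to 4 with a minimum of 10 or none (Cysltr2), from 2-fold on or without immunoglobulin genes (both Pla2g4a). Between EGFP cells, members lower in the trachea went from 1 to 2 with a minimum of 10 or none, to 0 with 500 and to 3 from 2-fold on. Between Tomato cells, members higher in the trachea went from 2 to 1 with a minimum of 500. Members whose EGFP effect differed 4-fold between tissues went from 3 to 1 with a pseudocount of 10. Scaling to equal totals shifted log2(EGFP/Tomato) by 0.58 in the trachea and 0.18 in the stomach, and less for values near 0. Per length, Ltc4s over Alox5ap was 1.73 in tracheal and 0.836 in gastric EGFP cells, and 1.38 and 0.673 with all exons merged, an alternative added after seeing the data.

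The limma calls were the least stable. Genes higher and lower in EGFP cells numbered 121 and 183, against 25 and 19 with a pseudocount of 0.1 (members higher from 3 to 2, without Alox5ap), 89 and 104 with a minimum of 500, and 0 and 0 without the tissue block, which pairs the sorts of a tissue, or without trend, where members higher went from 3 to 0. With 1 library left out at a time and no block, genes higher stayed at 0 (718 to 1677 genes at an unadjusted p under 0.05), genes lower ranged from 0 to 715, members higher stayed at 0 and members lower ranged from 0 to 1. The 715 came without tracheal Tomato cells. In these fits the lone sample of a group is assumed to vary like the others, and the cause of the lost calls was not tested. The tracheal EGFP library, with an estimated 6200000 reads, limits low levels the most.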
